A study of Mus musculus with 16 samples.

Results

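The genes described here act at successive steps by which fat tissue takes up fatty acids from blood lipoproteins: Lpl, Gpihbp1, Angptl4, Cd36, Vldlr, Fabp3, Fabp4, Fabp5, Slc27a1 and Slc27a2. They were chosen by name for these roles. Each was found through the RefSeq entry that a probe is designed against, and its brightest probe was used, so that 10 of 22911 named genes and 15 of 56605 probes are covered. RNA of brown adipose tissue (BAT) and gonadal white adipose tissue (gWAT) was hybridized to 16 one-colour Agilent arrays, 4 for each tissue and genotype. All mice were male C57BL/6NCrSlc mice kept at 23 °C on normal chow. Adipo-Pgam1 KO mice carried 2 floxed alleles of Pgam1, which encodes the glycolytic enzyme phosphoglycerate mutase 1, and Cre recombinase driven by the adiponectin promoter, which is active in adipocytes of every fat depot. The littermate controls, labelled wild type, carried the same floxed alleles without Cre. Mice were 16 weeks old, apart from replicate 4 of the knockout arrays in each tissue, given as 14 weeks. Cells of whole tissue other than adipocytes keep Pgam1 in this model. In whole tissue, fewer cells of a type and less RNA per cell cannot be told apart.

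A level below is the log2 of a probe's scanner signal over the 75th percentile of its array, so that a level of 0 equals that percentile, and a change is the difference between 2 group means of such levels. Levels of different genes come from different probes and were not compared with each other. The test was limma across all genes detected, with Benjamini-Hochberg adjustment and a threshold of 0.05 for a call. The labels do not say that replicate numbers link the tissues, and every p-value measures the spread between the mice of a group. Whether both tissues came from the same mice is not stated, and tests across tissues treated them as separate. Pgam1 itself changed by -1.74 in BAT, but rose by 0.95 in gWAT with the knockout label. These gWAT arrays are therefore called KO-labelled, and directions in gWAT rest on the label. Whether the Pgam1 probe lies in the floxed part is not given in the sources used here. The 75th percentile was 401.3 to 451.3 signal units in BAT of controls and 650.2 to 916.2 in BAT of Adipo-Pgam1 KO mice, a difference of 0.94 on the log2 scale, against 0.10 in gWAT. In BAT, 3 control arrays lay on a slide of their own and the remaining control shared a slide with all 4 knockout arrays. In gWAT, 3 controls lay on that second slide and the remaining control on slide 3 with the 4 KO-labelled arrays. Slide 3 was scanned on a different day from the other slides, so in gWAT the scan day went with the slide.

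Lipoprotein lipase (Lpl) is secreted by adipocytes, is carried across the capillary wall by Gpihbp1 and there splits the triglycerides of lipoproteins, while Angptl4 inactivates it. Vldlr binds triglyceride-rich lipoproteins, and the freed fatty acids enter through the membrane protein Cd36 and the fatty acid transport proteins, which the Slc27a genes encode and which can also activate fatty acids to acyl-CoA. Inside the cell they are bound by small carriers: Fabp4 is the main one of adipocytes, Fabp3 that of heart, muscle and brown fat, and Fabp5 is found in skin, macrophages and fat. Brown adipocytes burn a large part of what they take up to make heat, whereas white adipocytes mainly store it.

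Relative to the percentile used as the scale, most of these genes were downregulated in BAT of Adipo-Pgam1 KO mice. The falls of Slc27a2, Slc27a1 and Fabp3 were called under each of the 6 scalings tried. With the percentile as the scale, 8 of the 10 genes were called lower in BAT and 1, Fabp5, higher. Of all genes tested, 61.5% were called (27.5% higher and 34% lower). With spike-in scaling, 4 of the 10 genes were called lower and 1 higher. Before any scaling, Lpl, Gpihbp1 and Cd36 were higher in signal, as given below. These genes are bright, and among bright genes the share called lower was larger, as given below. The groups did not overlap for 9 of the 10 genes, against 57.1% of all genes tested. Of all genes called in BAT 44.8% were higher, a share of 78.1% with spike-in scaling and of 17.7% with Actb and Rplp0 as the scale. The median change of the 10 genes was -0.87 and that of all genes tested was -0.081. In gWAT, Fabp3 and Fabp5 were higher in the KO-labelled arrays, and the other 8 genes were not called.

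**Figure D1:**
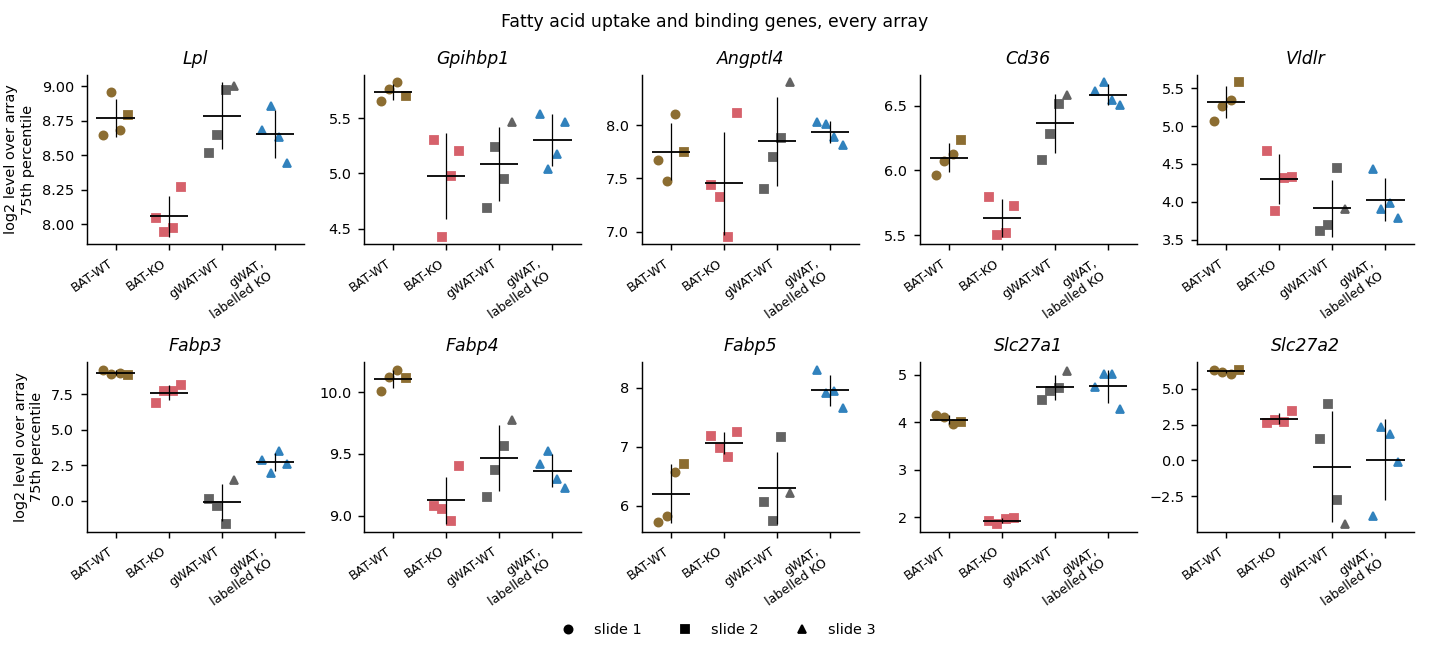
Log2 level of each of the 10 genes on each of the 16 arrays (y axis, log2 of signal over the array's 75th percentile), one panel per gene, with points for the 4 arrays of each tissue and genotype, shaped by slide, a horizontal bar at the group mean and a vertical line of 1 SD to either side. Slc27a2 stands at 6.04 to 6.33 in BAT of controls and at 2.63 to 3.48 in BAT of Adipo-Pgam1 KO mice, and spreads from -4.45 to 3.97 in gWAT.

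Changes in BAT depended on how bright a gene was, which touches several of these probes. Among genes with a mean level above 9 in BAT, 47 in all, the median change was -0.98, and 95.7% were called lower. The median was -0.85 for levels of 8 to 9, -0.63 for 6 to 8, -0.42 for 4 to 6 and -0.16 for 2 to 4. Fabp4, at a mean level of 9.61, changed by -0.98 and is itself the median gene of its brightness range, so it was not set against that median. Before scaling, its log2 signal lay between 18.75 and 18.93 on all 16 arrays, and among named genes it ranked between 3 and 16 in brightness on every array. No spot of these genes carried the scanner's saturation mark, and the brightest signal of an array was 19.46 to 19.70. The part of signal compression in these changes was not tested. Set against the median of their own brightness range, Lpl differed by 0.13, Cd36 by -0.046, Angptl4 by 0.33 and Gpihbp1 by -0.35. Further from it stood Vldlr at -0.60, Fabp3 at -0.56, Fabp5 at 1.49, Slc27a1 at -1.96 and Slc27a2 at -2.89.

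**Figure D2:**
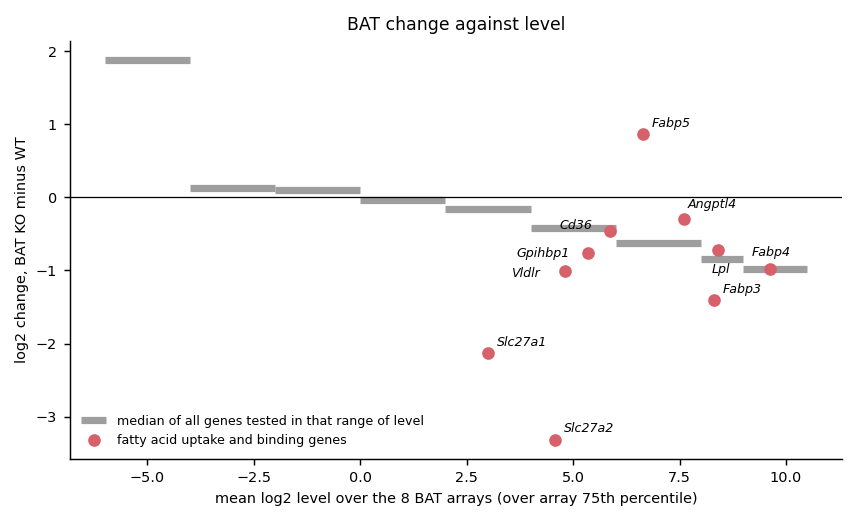
Change in BAT, Adipo-Pgam1 KO minus control (y axis, log2), against the mean level over the 8 BAT arrays (x axis, log2 of signal over the array's 75th percentile) with a point for each of the 10 genes and grey bars at the median of the 14280 genes tested in each range of level. The median falls from 0.11 at levels of -2 to 0 to -0.98 above 9, where Fabp4 is itself the median gene, and Slc27a2 and Slc27a1 lie far below it.

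The lipase step was lower in BAT at 2 of its 3 genes. Lpl stood at 8.65, 8.96, 8.68 and 8.79 in controls and at 8.04, 7.94, 7.97 and 8.27 in Adipo-Pgam1 KO mice. Every knockout array was below every control, and the change was -0.71 (standard error, SE, 0.11, adjusted p = 6.69e-04 in limma). Its 2 other probes changed by -0.58 and -0.67. The call was lost when the arrays were made to share one distribution by quantile normalization (-0.066, adjusted p = 0.584 in limma), and also when they were scaled by the spike-in controls (-0.21, adjusted p = 0.178 in limma). Gpihbp1, the capillary anchor of the lipase, stood at 5.66, 5.77, 5.83 and 5.70 in controls and at 5.30, 4.43, 4.97 and 5.20 in Adipo-Pgam1 KO mice. The groups were apart and the knockout arrays more widely spread, with a change of -0.76 (SE 0.18, adjusted p = 0.00629 in limma). With spike-in scaling it was -0.25 and not called (adjusted p = 0.273 in limma), and with the slide as a fixed block it was -0.73 and not called (adjusted p = 0.0858 in limma). Angptl4, the inhibitor, stood at 7.67, 7.48, 8.11 and 7.75 in controls and at 7.44, 7.32, 6.95 and 8.11 in Adipo-Pgam1 KO mice. These groups overlapped because of knockout replicate 4, the 14-week-old mouse, and the change of -0.30 was not called (95% interval -0.85 to 0.26, adjusted p = 0.314 in limma). Without that array it was -0.52 (adjusted p = 0.0453 in limma). With Actb and Rplp0, themselves higher in the knockout arrays, as the scale it was -0.89 and called (adjusted p = 0.00909 in limma). Under quantile normalization, its combination with normexp background correction and spike-in scaling, the change of Angptl4 was above 0 and not called.

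Vldlr, a receptor for whole lipoproteins, stood at 5.07, 5.26, 5.35 and 5.58 in BAT of controls and at 4.67, 3.88, 4.32 and 4.33 in Adipo-Pgam1 KO mice. The groups were apart, with a change of -1.01 (SE 0.18, adjusted p = 0.00119 in limma), and its second probe changed by -1.55. Spike-in scaling took the call away (-0.50, adjusted p = 0.0623 in limma). Cd36, the membrane protein that binds long-chain fatty acids, stood at 5.96, 6.07, 6.13 and 6.23 in controls and at 5.79, 5.50, 5.52 and 5.73 in Adipo-Pgam1 KO mice. The gap between the groups was small, and the change was -0.46 (SE 0.11, adjusted p = 0.00548 in limma). It was -0.21 under quantile normalization (adjusted p = 0.117 in limma) and 0.046 with spike-in scaling (adjusted p = 0.780 in limma), where the median of all genes also moved up, by 0.51. Relative to the median of all genes, Cd36 changed by -0.38.

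The transport proteins showed the largest falls. Slc27a1 stood at 4.15, 4.11, 3.96 and 4.01 in BAT of controls and at 1.91, 1.86, 1.97 and 1.97 in Adipo-Pgam1 KO mice. Both groups were narrow and lay far apart, and the change was -2.13 (SE 0.088, adjusted p = 1.87e-06 in limma), a relative expression of 0.229. Slc27a2, which encodes the transport protein abundant in liver and kidney that activates very long-chain fatty acids, stood at 6.33, 6.22, 6.04 and 6.31 in controls. In Adipo-Pgam1 KO mice it stood at 2.63, 2.83, 2.72 and 3.48. The change of -3.31 (SE 0.19, adjusted p = 6.53e-06 in limma) left a relative expression of 0.101. Over the 6 scalings, it lay between -3.90 and -2.80 for Slc27a2 and between -2.72 and -1.62 for Slc27a1, called in each. Without scaling, the signals themselves were lower, with differences of -2.37 for Slc27a2 and -1.18 for Slc27a1. Fabp3 was also lower without scaling, at -0.46, whereas Vldlr at -0.070 and Fabp4 at -0.036 differed little. Lpl at 0.23, Gpihbp1 at 0.18 and Cd36 at 0.48, all called lower after scaling, were higher in unscaled signal. Angptl4 at 0.65 and Fabp5 at 1.81 were also higher. In a single fit over all 16 arrays, whose error also holds the wide spread of gWAT, the change of Slc27a2 was not called (adjusted p = 0.0769 in limma).

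The 3 binding proteins moved in different ways in BAT. Fabp3 stood at 9.21, 8.93, 8.99 and 8.87 in controls and at 6.84, 7.73, 7.72 and 8.10 in Adipo-Pgam1 KO mice. All knockout arrays were lower, replicate 1 most, and the change was -1.40 (SE 0.24, adjusted p = 0.00111 in limma), with -1.47 for the second probe. On knockout replicate 1, the summed level of 11 skeletal muscle markers was 7.29, against 2.89 to 4.95 on the other knockout arrays and 5.35 to 5.63 in controls. Without that array Fabp3 changed by -1.15 (adjusted p = 4.07e-04 in limma). Over the scalings it lay between -1.99 and -0.80, called in each. Fabp4 stood at 10.01, 10.12, 10.18 and 10.11 in controls and at 9.08, 9.06, 8.96 and 9.40 in Adipo-Pgam1 KO mice. The groups were apart at the 75th percentile scaling (-0.98, SE 0.11, adjusted p = 1.27e-04 in limma), whereas the change was 0.040 under quantile normalization (adjusted p = 0.665 in limma). Its second probe changed by -1.03. Fabp5 was the one gene that was upregulated, from 5.72, 5.82, 6.57 and 6.70 in controls to 7.18, 6.98, 6.83 and 7.26 in Adipo-Pgam1 KO mice. The change was 0.86 (SE 0.24, adjusted p = 0.0124 in limma), and 2 controls lay close to the knockout arrays. It was 0.36 and not called with the slide as a fixed block (adjusted p = 0.386 in limma), where the control on the shared slide, replicate 4, stands for all controls. With Actb and Rplp0, themselves higher in the knockout arrays, as the scale it was 0.27 and not called (adjusted p = 0.363 in limma).

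**Figure D3:**
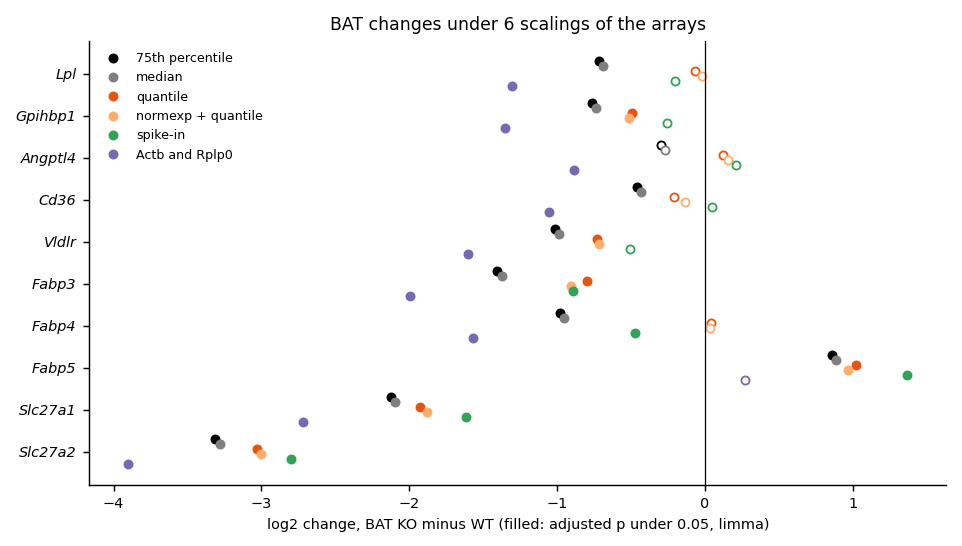
Change of each of the 10 genes in BAT, Adipo-Pgam1 KO minus control (x axis, log2), under 6 ways of scaling the arrays, with a filled point where the adjusted p was under 0.05 in limma. Slc27a2, Slc27a1 and Fabp3 lie below 0 and are filled under all 6, whereas Fabp4 and Lpl lie near 0 under both quantile scalings.

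Marker sums of macrophages, adipocytes and brown adipocytes differed with the genotype in BAT, whereas those of endothelial cells overlapped. Of all genes tested, 27.5% were called higher and 34% lower. The summed level of 10 macrophage markers was 4.81 to 5.32 in controls and 6.62 to 7.20 in Adipo-Pgam1 KO mice, with 9 of the 10 called higher. The summed level of 10 adipocyte markers was 10.75 to 11.17 in controls and 8.76 to 9.24 in Adipo-Pgam1 KO mice (8 of 9 tested were lower). That of 10 brown adipocyte markers was 11.68 to 11.78 and 10.16 to 10.87 (7 of 10 were lower). Such sums are carried by their brightest genes. Among all genes with a mean level above 9 in BAT, the median change was -0.98, and 95.7% were called lower. The 10 endothelial markers, which bear on the capillary gene Gpihbp1, summed to 6.17 to 6.68 in controls and 5.67 to 6.39 in Adipo-Pgam1 KO mice, and 2 of 10 were lower. The part of these shifts in the falls listed above and in the rise of Fabp5, which macrophages also express, was not tested.

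Promoters are shown for Fabp3, whose depot difference and genotype changes were the widest of the binding proteins, for Slc27a2, which fell most in BAT, and for a stretch of Vldlr that holds the same motif as Fabp3. They come from RefSeq on build GRCm38.p6, whose table held windows for 5 of the 10 genes, and are printed 5′ to 3′ on the gene's strand. Fabp3 is the 250 bases before its start, at chr4:130308488-130308737 on the plus strand. Slc27a2 is the 250 bases before its start, at chr2:126552774-126553023 on the plus strand. Vldlr is 30 bases at chr19:27216809-27216838 on the plus strand. Capitals mark matches to CARE, an element bound by ATF4 with CEBP proteins, spelled TGATGNAA and read here on the opposite strand.
Fabp3: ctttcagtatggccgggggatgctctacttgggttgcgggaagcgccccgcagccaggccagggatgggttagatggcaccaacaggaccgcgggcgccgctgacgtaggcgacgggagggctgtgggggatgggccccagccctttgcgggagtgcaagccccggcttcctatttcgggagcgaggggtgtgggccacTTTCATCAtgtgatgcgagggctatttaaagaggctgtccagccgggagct
Slc27a2: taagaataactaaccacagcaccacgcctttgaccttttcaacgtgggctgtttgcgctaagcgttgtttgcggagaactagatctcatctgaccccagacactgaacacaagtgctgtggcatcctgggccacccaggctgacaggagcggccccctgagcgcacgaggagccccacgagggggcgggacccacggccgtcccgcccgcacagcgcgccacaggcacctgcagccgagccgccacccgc
Vldlr: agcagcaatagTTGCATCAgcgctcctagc
CARE was searched on both strands in windows from 250 bases before to 50 bases after a start. It matched at bases -51 to -44 from the start of Fabp3 and -200 to -193 from the second start of Vldlr, and 3.97% of 32851 promoter windows held it. DR1, the element of PPAR and RXR receptors, searched as 2 copies of AGGNCA in tandem with 1 base between, was in none of the 8 windows of these genes and in 0.381% of all windows. The messenger RNA of Atf4 itself changed by 1.64 in BAT, where Fabp3 and Vldlr fell. Whether ATF4 acts on these genes was not tested.

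In gWAT, 2 of the 10 genes were called, both higher in the KO-labelled arrays, where 17.8% of all genes tested were called (9.99% up and 7.85% down). The groups did not overlap for these 2 genes, against 24.1% of all genes tested, and the median change was 0.17 for the 10 genes and 0.047 for all. Of all genes called in gWAT 56.0% were higher, a share of 96.0% with spike-in scaling, where 7 of the 10 genes were called, and of 71.0% with median centring. Fabp3 stood at 0.11, -0.35, -1.62 and 1.50 in controls and at 2.89, 1.97, 3.48 and 2.56 in the KO-labelled arrays. All 4 of the latter were higher, with a log2 change of 2.81 (SE 0.60, adjusted p = 0.0175 in limma), or 7.03-fold, and the second probe changed by 3.57. Even so its level stayed below those of BAT in Adipo-Pgam1 KO mice, 6.84 to 8.10. Fabp5 stood at 6.07, 5.74, 7.16 and 6.21 in controls and at 8.31, 7.91, 7.94 and 7.67 in the KO-labelled arrays. The groups were apart, with a change of 1.66 (SE 0.29, adjusted p = 0.00940 in limma), or 3.17-fold. The summed level of 10 brown adipocyte markers was 3.63 to 4.38 in gWAT of controls and 6.06 to 7.51 in the KO-labelled arrays. Of these markers 7 were tested, 4 were called higher and 3 were not called. The sum of 10 macrophage markers was 6.09 to 6.54 and 6.20 to 7.81, with 2 of 10 called higher. The part of both marker lists in the rises of Fabp3 and Fabp5 was not tested.

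With the slide as a fixed block, Fabp3 was 1.23 higher (adjusted p = 0.407 in limma) and Fabp5 1.75 higher (adjusted p = 0.134 in limma), and neither was called. Leaving out replicate 1 or replicate 3 of the KO-labelled arrays also took the call of Fabp3 away, at adjusted p = 0.0544 and 0.0517 in limma. Fabp5 kept its call without any single array, at adjusted p up to 0.0320 in limma. The other genes were close to their controls. Lpl stood from 8.51 to 9.0 in controls and from 8.44 to 8.86 in the KO-labelled arrays. Cd36 stood from 6.08 to 6.58 in controls and from 6.51 to 6.68 in the latter. Their changes were -0.13 (95% interval -0.49 to 0.23) and 0.22 (95% interval -0.097 to 0.54). Slc27a1, which fell in BAT, stood at 4.47 to 5.08 in controls and at 4.27 to 5.02 in the KO-labelled arrays, a change of 0.027 (95% interval -0.44 to 0.49). Fabp4 changed by -0.10, Gpihbp1 by 0.22, Vldlr by 0.12 and Angptl4 by 0.088, and none was called.

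**Figure D4:**
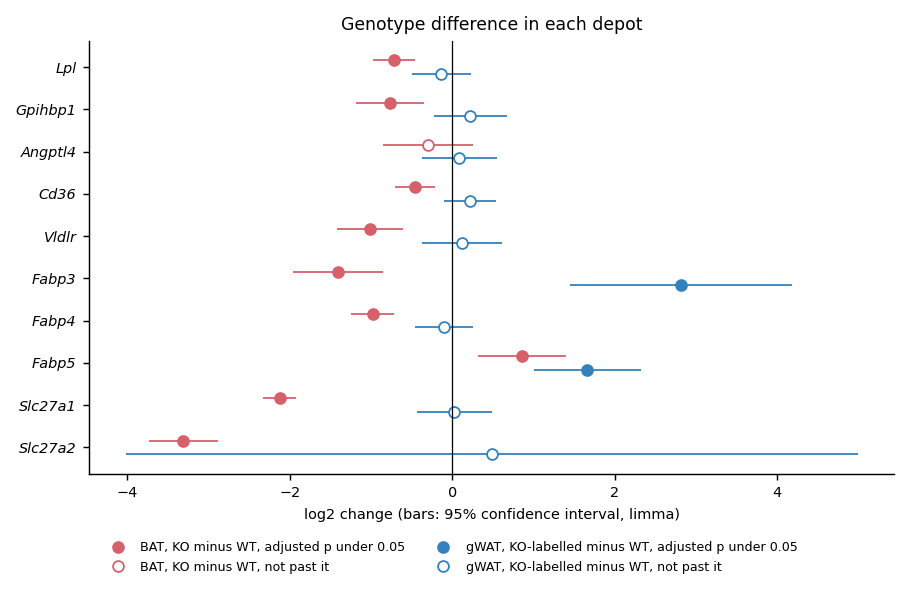
Change of each of the 10 genes with its 95% interval (x axis, log2) in BAT, Adipo-Pgam1 KO minus control, and in gWAT, KO-labelled arrays minus control. Fabp3 changes by -1.40 in BAT and by 2.81 in gWAT, Fabp5 rises in both, and the interval of Slc27a2 in gWAT runs from -4.02 to 4.99.

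The difference between the depots in the genotype change was tested as an interaction, gWAT minus BAT. It was called for 7 of the 10 genes, all higher in gWAT than in BAT, where 48.3% of all genes tested were called (27.4% higher and 21% lower). The median over the 10 genes was 0.93 and over all genes 0.075. Of the called interactions 56.6% were higher in gWAT, and 83.7% with Actb and Rplp0 as the scale. Fabp3, which was lower in BAT and higher in gWAT, had an interaction of 4.22 (SE 0.71, adjusted p = 2.79e-04 in limma). Slc27a1 had an interaction of 2.15 (SE 0.22, adjusted p = 1.16e-05 in limma). Vldlr followed with 1.13 (adjusted p = 0.0056 in limma), Gpihbp1 with 0.98 (adjusted p = 0.00952 in limma) and Fabp4 with 0.88 (adjusted p = 0.00178 in limma). Cd36 had 0.68 (adjusted p = 0.00408 in limma) and Lpl 0.58 (adjusted p = 0.0201 in limma). For Fabp5, which was called higher in both depots, the difference of 0.80 was not called (95% interval -0.056 to 1.66, adjusted p = 0.113 in limma), though without control replicate 3 of gWAT it was 1.09 (adjusted p = 0.0150 in limma). For Slc27a2, 3.80 was not called (95% interval -0.88 to 8.48, adjusted p = 0.167 in limma), and its gWAT arrays spread from -4.45 to 3.97. It was 5.26 and called without control replicate 2 of gWAT (adjusted p = 0.0333 in limma), and 5.12 and called without KO-labelled replicate 1 (adjusted p = 0.0497 in limma). Under quantile normalization 3 of the 10 interactions were called, and those of Lpl and Fabp4 changed sign, to -0.065 and -0.16. Genes of levels from 6 to 8 over both depots had a median interaction of 0.79 and those above 9 had 0.80. From the median of their own range, Lpl differed by -0.27, Cd36 by -0.11 and Fabp4 by 0.073. The share called higher in gWAT was 49.6% for levels from 4 to 6, 58.7% from 6 to 8 and 84% above 9, against 27.4% over all genes. With the slide as a fixed block 1 of the 10 was called, Slc27a1.

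In littermate controls, BAT and gWAT differed at 6 of the 10 genes, of which 5 were higher in BAT, where 64.7% of all genes tested were called (35.4% higher and 29.3% lower in BAT). The groups did not overlap for these 6 genes, against 60.8% of all genes tested. Of all genes called, 54.8% were higher in BAT, and 70.9% with Actb and Rplp0 as the scale, which also called Lpl, at 0.32 (adjusted p = 0.0301 in limma). Over the 75th percentile, Actb itself differed by -0.79, BAT minus gWAT (adjusted p = 0.00245 in limma). Fabp3 showed the widest gap, at 8.87 to 9.21 in BAT and -1.62 to 1.50 in gWAT, a difference of 9.09 (SE 0.55, adjusted p = 3.34e-06 in limma). Vldlr was 1.40 higher in BAT (SE 0.20, adjusted p = 3.31e-04 in limma). Slc27a1 was the one gene lower in BAT, by 0.68 (SE 0.14, adjusted p = 0.00305 in limma). Gpihbp1 was 0.65 higher (adjusted p = 0.00879 in limma) and Fabp4 0.64 higher in BAT (adjusted p = 0.00446 in limma). The mean log2 of the 75th percentile was 8.74 in BAT of controls and 9.44 in gWAT of controls. Before scaling, the mean log2 signal of Gpihbp1 was 14.48 in BAT and 14.52 in gWAT, and that of Fabp4 was 18.85 and 18.90. Over all genes tested, the median difference was 0.41 for levels of 4 to 6 and 0.79 above 9. Under quantile normalization Fabp4 was instead 0.29 lower in BAT (-0.29, adjusted p = 0.0140 in limma) and Gpihbp1 was not called. There, Lpl at -0.83, Angptl4 at -0.96 and Cd36 at -0.87 were called lower in BAT, whereas with the 75th percentile as the scale they differed by -0.015, -0.096 and -0.27 and were not called. Without control replicate 1 of gWAT, Cd36 was at -0.36 and called lower in BAT (adjusted p = 0.0329 in limma). Fabp5 differed by -0.094 (95% interval -0.88 to 0.69). The order of the 4 groups was BAT of controls, BAT of Adipo-Pgam1 KO mice, gWAT labelled Adipo-Pgam1 KO and gWAT of controls for Fabp3, with no overlap between neighbours. For Slc27a1, the gWAT groups overlapped each other and stood above BAT of controls, which stood above BAT of Adipo-Pgam1 KO mice.

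Slc27a2 in gWAT moved with genes of liver. It stood at 1.51, 3.97, -2.75 and -4.45 in gWAT of controls and at -3.90, 2.34, 1.88 and -0.090 in the KO-labelled arrays, and control replicate 4 was not well above background. The groups overlapped over their whole range, and the change was 0.49 (SE 1.98, adjusted p = 0.890 in limma). On the same arrays the summed level of 10 hepatocyte markers, a list chosen after these data were seen, was 6.96, 9.82, 4.53 and 3.89 in controls and 2.08, 8.15, 7.67 and 5.65 in the KO-labelled arrays. Ranked over the 8 gWAT arrays, Slc27a2 and this sum held the same place on 6, and the 2 lowest arrays were exchanged. Albumin (Alb) alone ran from 0.89 to 7.86 in gWAT. In BAT the sum was -0.90 to 0.01, with 1 to 3 of the 10 markers well above background, against 4 to 10 in gWAT. Their part in the level of Slc27a2 in gWAT was not tested. In controls, Slc27a2 was 6.66 higher in BAT than in gWAT (SE 1.62, adjusted p = 0.00642 in limma). It was 9.83 higher without the 2 gWAT arrays of each genotype that had the highest sum. Those 4 arrays were also the highest of the 8 in Slc27a2 itself. A wider gap and a smaller spread were therefore fixed by the choice of arrays, and no p-value is given. Without those arrays its interaction was 4.91, a value with the same limit. In gWAT, Fabp3 was then 2.78 higher (adjusted p = 0.234 in limma) and Fabp5 1.31 higher (adjusted p = 0.207 in limma), and neither was called with 2 arrays a group. With the sum as a covariate in all 8 gWAT arrays, they were 2.79 higher (adjusted p = 0.0242 in limma) and 1.62 higher (adjusted p = 0.00804 in limma). In controls, the mean of Fabp1, the fatty acid binding protein of liver, was at least 58.1-fold higher in gWAT than in BAT, where it was not well above background on any array. The mean of Apoa5, a lipase activator made by liver, was at least 14.2-fold higher. Their measured differences, BAT minus gWAT, ran from -9.10 to -6.33 for Fabp1 and from -7.09 to -4.54 for Apoa5 when single arrays were left out. Both bounds set the mean in gWAT against the lowest signal well above background on the BAT arrays, and they do not hold for each array. In gWAT of controls, Fabp1 stood at 3.82, 6.40, -0.72 and -1.91 and Apoa5 at 0.42, 4.25, -1.83 and -3.40. Replicates 1 and 2, the highest for both, also had the highest hepatocyte sums of these controls.

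**Figure D5:**
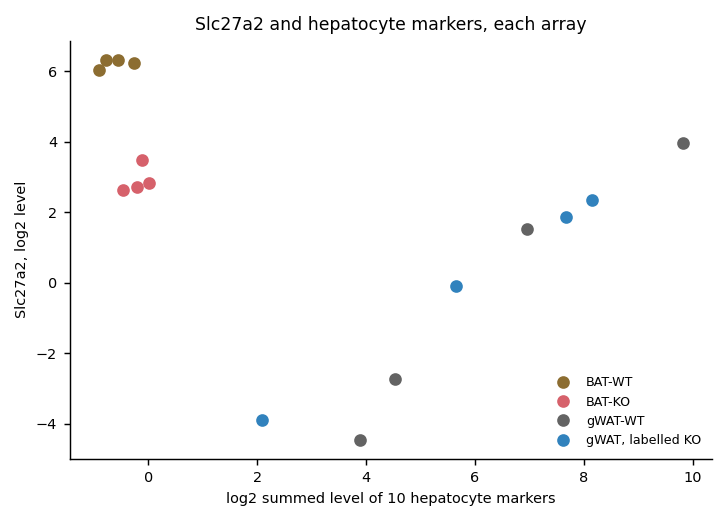
Level of Slc27a2 (y axis, log2 of signal over the array's 75th percentile) against the log2 summed level of 10 hepatocyte markers (x axis) on each of the 16 arrays, by tissue and genotype. The 8 gWAT arrays run from 2.08 to 9.82 on the x axis and follow nearly one order on both axes, while the 8 BAT arrays lie between -0.90 and 0.01 and split by genotype.

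Around these genes, 64 others of fatty acid uptake were listed by role, and 52 were tested in BAT, of which 8 were higher and 31 lower, against 27.5% and 34% of all genes tested, with a median of -0.68 against -0.081. Of the genes that control lipoprotein lipase, 6 of 11 tested were lower and 3 higher. The lipase inhibitors Apoc3 and Apoc1 changed by -2.28 and -2.27, whereas Sdc1, a heparan sulfate proteoglycan, changed by 3.26. Of the lipoprotein receptors 3 of 7 were lower and 1 higher. Of 7 acyl-CoA synthetases, 4 were lower and 1 higher, with Acsm3 at -3.86, Acss1 at -2.52 and Acsl1, the main long-chain enzyme of fat, at -1.70. Of 8 further membrane genes, 5 were lower and 1 higher, with Mfsd2a, a lysophospholipid carrier, at -3.52 and Ffar4, a fatty acid receptor, at -3.19. Of 7 genes of endothelial uptake control 4 were lower and none higher, and of 7 transcription factors 6 were lower and 1, Atf4, higher. Among the closest relatives of the transport proteins, Slc27a3 changed by 0.78 (adjusted p = 0.0130 in limma), Slc27a4 by -0.53 (adjusted p = 0.00746 in limma) and Slc27a5 by -1.39 (adjusted p = 0.00200 in limma). Slc27a6 was well above background on 1 of the 16 arrays, and neither Fabp1 nor Fabp7 could be tested in BAT.

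In gWAT, 54 of the 64 genes were tested, and 3 were higher and 3 lower in the KO-labelled arrays, where 17.8% of all genes tested were called. Angptl8, an inhibitor of the lipase, changed by 1.83 and Got2, a mitochondrial enzyme also described as a fatty acid binding protein of the membrane, by 1.07. Ffar4 changed by -1.24. The calls of Sort1 (-0.63), Acsl3 (-0.67) and Acsl4 (0.64) were less stable and were lost without a single array in 5, 7 and 7 of 8 cases, at adjusted p up to 0.0780, 0.114 and 0.0842 in limma. Of 55 interactions tested, 24 were higher in gWAT than in BAT and 7 lower, against 48.3% called over all genes, among them Acss2 at 2.82 and Sdc1 at -2.74. Mfsd2a, at 4.81, lost its call without a single array in 11 of 16 cases, with values from 4.11 to 6.01 and adjusted p up to 0.0822 in limma. In controls, 24 of 54 were higher in BAT and 18 lower, against 64.7% called over all genes. Acss1, at 4.51, and the receptor Ppara, at 4.45, were higher in BAT. Mfsd2a was higher by 8.56, but only 2 of the 4 gWAT control arrays measured it well above background.

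Of the 9 genes well above background on all 16 arrays, the closest patterns were sought among 14794 genes, as the root mean square difference in log2 after each gene was centred on its mean. The closest to Fabp4 were Exosc2, at 0.057, and Milr1, at 0.073. For Lpl they were Ubb, at 0.116, and Ccm2, at 0.118, for Cd36 Rnf181, at 0.116, and for Slc27a1 Fam217a, at 0.346, and Cidec, at 0.349. For Fabp3, whose own levels had an SD of 3.85 over the arrays, they were Acot11, at 0.955, and Cox7a1, at 1.16, the latter one of the brown adipocyte markers. The closest to Fabp5 were Sorl1 and Me1, both at 0.325. The arrays share their scale and tissue in these comparisons, and the differences are descriptions.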

How the data were processed

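Total RNA of BAT and gWAT was labelled with Cy3 and hybridized to one-colour Agilent arrays, 4 per tissue and genotype. The labels and the study's methods give different amounts of RNA. Per the file headers and labels, the authors' scanner files came from Agilent Feature Extraction 10.7.1.1 and hold each spot's intensity, background-subtracted and detrended, with flags. The deposited table of normalized intensity, made by the authors in GeneSpring GX 12.0, lay within 0.00504 log2 units of signal over the array's 75th percentile. Levels here are log2(processed signal) minus log2 of that percentile.

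Of 35886 RefSeq probes, 91.9% were named through a RefSeq gene table, giving 22911 symbols, each taken at its brightest probe. The share of probes well above background was 50.0% to 62.2% per array. A gene was tested if well above background on all 4 arrays of a group compared, with limma 3.58.1 in R 4.3.3 (lmFit, eBayes, Benjamini-Hochberg). The number of arrays limits the precision. With 4 arrays against 4, the smallest two-sided exact permutation p is 0.0286. The script was tested on simulated data. The genes and lists were chosen with earlier results of these data known. All 10 genes are named in every comparison, and of the listed pathway genes up to 8 called with the largest change, of which 1 gene is not reported here. Alternatives were 5 scalings, filters, probe averaging, slide, scan day and replicate blocks, the methods' t-test, leaving out each array and, added after seeing the data, handling of hepatocyte markers. Normexp used an offset of 50. No protein sequences were used here.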

Additional observations from a re-analysis of the deposited data

Results flagged for a closer look

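Of the 10 genes, 7 changed differently with genotype in gWAT and in BAT by the interaction test in limma, with each direction in gWAT resting on the label. The change in gWAT minus that in BAT was 4.22 for Fabp3 and 2.15 for Slc27a1. It was 1.13 for Vldlr, 0.98 for Gpihbp1, 0.88 for Fabp4, 0.68 for Cd36 and 0.58 for Lpl. The 75th percentile itself differed with genotype by 0.94 in BAT and 0.10 in gWAT. Set against the median interaction of their brightness range, Lpl differed by -0.27, Cd36 by -0.11 and Fabp4 by 0.073. Further above it stood Gpihbp1 at 0.47, Vldlr at 0.61, Slc27a1 at 1.88 and Fabp3 at 3.70. Among the genes tested, 48.3% passed the same test, and the share called higher in gWAT was larger among bright genes. In the 40 groups of 4 arrays formed by the 10 genes, none had an array far from the others by Dixon's ratio.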

How the results depend on the processing

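Over all alternatives, 923 values of the 10 genes kept their direction and side of the threshold, 56 changed sign without a call on either side, 44 lost the call, 24 gained one and 10 changed sign with a call on at least 1 side. In BAT, 9 of the 10 genes were called, 5 with spike-in scaling, and 9 to 10 when single arrays were left out. Changes of sign in BAT with a call on at least 1 side were Fabp4 at 0.040 with quantile normalization and 0.033 with normexp added, and Cd36 at 0.046 with spike-in scaling. Angptl4, not called, was 0.12, 0.16 and 0.21 under these 3 scalings. In gWAT, 2 of the 10 were called, 7 with spike-in scaling, 1 with the methods' t-test after Benjamini-Hochberg adjustment and 0 with the slide or the scan day as a fixed block or without the 4 arrays highest in hepatocyte markers. Leaving out single arrays gave 1 to 2. Of all genes, 2525 were called in gWAT, 1384 with median centring, 6027 with spike-in scaling, 1138 without the filter, 184 with either block, 1618 and 4673 by the methods' t-test with and without adjustment, 4040 in the fit over 16 arrays, 92 without the hepatocyte-high arrays and 1080 to 3211 without single arrays (1188 without control replicate 2, 1581 without control replicate 3, and 1080, 1283 and 1144 without KO-labelled replicates 1, 2 and 3). Of the interactions, 7 were called, 3 with quantile normalization, with or without normexp, 1 with the slide block, 4 with the scan day block and 7 to 8 without single arrays. Lpl turned to -0.065 and -0.040 and Fabp4 to -0.16 and -0.20 with quantile normalization without and with normexp. Over all genes 7162 interactions were called, 3265 with the slide block, 4560 with the scan day block. Between depots in controls, 6 were called, and 3 with hepatocyte markers as a covariate (all genes 9254 and 3957), a sum that does not overlap between the depots. Fabp4 turned to -0.29 with quantile normalization and with normexp added, Lpl to 0.32 with Actb and Rplp0, and Fabp1 and Apoa5 to 1.94 and 2.43 with the covariate. The cause of these shifts was not tested. Leaving out single arrays gave 7884 to 8720 calls over all genes in BAT, 6504 to 7610 interactions and 8464 to 9134 between depots.

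The correlation of deviations between same-numbered arrays ranged from -0.12 to 0.51 and was best with the own number in 7 of 16 cases, so the numbers were not taken as pairs. With the replicate number as a block 9, 2, 7 and 6 of the 10 genes were called in BAT, in gWAT, for the interaction and between depots, with 1087 of all genes in gWAT. Another scaling moved the median change of all genes by up to 0.51 and -0.59 in BAT, 0.48 in gWAT, 0.53 for the interaction and 0.33 between depots. Signals near background, as for Slc27a2 in gWAT, are least precise.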
